A study of Homo sapiens with 18 samples.

Results

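NF-κB transcript levels were followed in the 10 genes that encode its subunits and a set of its feedback regulators, in senescent and control fibroblasts given an inhibitor of protein N-myristoylation. The subunits were NFKB1, NFKB2, REL, RELA and RELB, and the regulators were NFKBIA, NFKBIE, NFKBIZ, TNFAIP3 and BCL3. These members were taken by gene symbol from a table of 28266 genes, and all 10 passed the filter on low counts that left 14341 genes for testing.

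The cells were IMR90 ER:RAS, a line of human lung fibroblasts carrying a RAS oncoprotein fused to the hormone-binding part of the oestrogen receptor, which 4-hydroxytamoxifen (4OHT) switches on. The fusion was introduced by retroviral transduction and was present in every group, controls included, while the labels give the genotype as WT. Senescent cells received 100 nM 4OHT and control cells received DMSO, and after 7 days of culture IMP1088 (300 nM), DDD86481 (1.5 µM) or DMSO was added for 3 days, with collection on day 10. Both compounds inhibit N-myristoyltransferases (NMT), the enzymes that attach the lipid myristate to the N terminus of proteins. Each of the 6 groups (control or senescent, with DMSO, IMP1088 or DDD86481) had 3 libraries of bulk poly(A) RNA. No group had 4OHT without the fusion, so exposure to 4OHT, RAS activity and the senescent state cannot be told apart. Below, senescence names them together. No label states whether the 3 replicates were separate cultures. A figure legend of the study, on gene expression under the same treatments, counts its 3 replicates as independent experiments without naming the libraries. The p-values measure the spread between these libraries, which the main fit estimated for each gene over all 6 groups together. A test between groups therefore also carries the spread within the groups outside it. The spread is one between experiments if the libraries are those samples, and otherwise it may be technical.

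NF-κB is a family of dimeric transcription factors held in the cytoplasm by inhibitory proteins of the IκB family and released when a kinase complex marks those inhibitors for destruction. In the canonical branch NFKB1, RELA and REL products are released within minutes of a cytokine signal, whereas the non-canonical branch acts slowly through the processing of the NFKB2 product, which pairs with RELB. Several genes of the pathway are themselves targets of NF-κB, among them inhibitors that switch the signal off again, and in senescent cells NF-κB is known as a driver of the inflammatory secretome.

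Library totals ran from 16143716 to 23189950 counts, and the members' counts in a library from 83 to 3383. Levels are given as CPM, counts scaled to a common library size by the TMM method, and a change passed the test when its adjusted p in edgeR was under 0.05. The senescence marker CDKN1A was 376.5 ± 34.6 CPM in control and 2125.8 ± 159.3 CPM in senescent DMSO cells, and LMNB1, which falls in senescence, went from 27.2 ± 0.917 to 2.08 ± 1.05 CPM (SD, n = 3). Control DMSO replicate 3 stood apart from its group on principal component 3, which held 4.1% of the variance. Its score there was 57.3, and the other control DMSO libraries had 14.8 and 27.8. Member calls lost without it, and the NFKBIA values that it enters, are therefore given without it too. Other member values also moved without it, with no call changed. All 10 fibroblast markers reached 1 CPM in every group. DCN and LUM fell by the largest factors, from 3042.5 and 313.6 CPM in control DMSO cells to 7.73 and 8.39 CPM in senescent DMSO cells. VIM and COL6A1 were higher in senescent DMSO cells, at 11680.9 and 5929.9 CPM against 5035.2 and 4040.8 CPM in control DMSO cells. The other fibroblast markers were lower there. The epithelial markers KRT5 and KRT14 were at 0 throughout, as was the T-cell marker CD3E. The summed level of the 4 epithelial markers was 0.564 to 1.49 CPM in control and 0.44 to 0.741 CPM in senescent DMSO libraries. In libraries with an inhibitor it lay between 0.448 and 1.04 CPM. The summed level of the 5 immune markers was 15.2 to 20.1 CPM in control and 119.3 to 150.0 CPM in senescent DMSO libraries, nearly all of it from CD68, a lysosomal gene whose exons overlap a gene on the same strand over 94.9% of their length, with PTPRC at 0.181 CPM in senescent DMSO cells. The summed level of the 4 endothelial markers was 1.17 to 1.73 CPM in control and 10.3 to 10.7 CPM in senescent DMSO libraries. The immune and endothelial sums moved with senescence as many members did, and their part in the members' changes was not tested. In bulk RNA, fewer cells of a type and less RNA per cell cannot be told apart.

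RefSeq on GRCh38.p14 places the subunits at chr4:102501359-102617302 (NFKB1), chr10:102394110-102402529 (NFKB2), chr2:60881574-60931612 (REL), chr11:65653601-65663857 (RELA) and chr19:45001464-45038192 (RELB). The regulators lie at chr14:35401513-35404749 (NFKBIA), chr6:44258166-44265551 (NFKBIE), chr3:101827990-101861022 (NFKBIZ), chr6:137866349-137883312 (TNFAIP3) and chr19:44747705-44760044 (BCL3).

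The sequences before the members' transcription starts are shown because NF-κB genes are classic targets of NF-κB itself. The table of RefSeq promoter sequences on GRCh38.p14 that was used held 8 of the 10 members, all but RELB and NFKBIE, and the 250 bases before each start were searched on both strands for the kappaB motif of 10 bases, with overlapping matches allowed. At least 1 match was found for 6 of the 8 members, and none for RELA or BCL3. Of all 34943 windows searched in the same way, 5.2% held a match, and of all genes with a window, 6.28%. A match is a run of letters and was not examined for binding here. Windows that hold a match and lie before the whole annotated gene are printed 5′ to 3′ on the strand of the gene, with the matches in capitals.
NFKB1 (chr4:102501109-102501358, plus strand): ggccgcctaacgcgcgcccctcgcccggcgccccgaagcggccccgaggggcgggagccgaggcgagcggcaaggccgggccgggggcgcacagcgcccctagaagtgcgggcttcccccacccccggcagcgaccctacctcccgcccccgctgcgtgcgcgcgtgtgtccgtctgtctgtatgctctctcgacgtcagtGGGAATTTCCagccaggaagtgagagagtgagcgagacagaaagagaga
REL (chr2:60881324-60881573, plus strand): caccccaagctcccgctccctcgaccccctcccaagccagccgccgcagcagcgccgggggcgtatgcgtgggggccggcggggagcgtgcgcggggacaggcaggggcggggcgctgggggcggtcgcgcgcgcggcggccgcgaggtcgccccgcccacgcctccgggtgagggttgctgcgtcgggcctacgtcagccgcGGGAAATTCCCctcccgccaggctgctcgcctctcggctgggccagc
NFKBIA (chr14:35404750-35404999, minus strand): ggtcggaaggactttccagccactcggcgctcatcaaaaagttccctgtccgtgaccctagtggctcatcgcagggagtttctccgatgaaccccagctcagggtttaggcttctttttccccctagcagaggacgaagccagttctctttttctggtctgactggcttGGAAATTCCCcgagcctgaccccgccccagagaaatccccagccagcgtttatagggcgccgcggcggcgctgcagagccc
NFKBIZ (chr3:101827740-101827989, plus strand): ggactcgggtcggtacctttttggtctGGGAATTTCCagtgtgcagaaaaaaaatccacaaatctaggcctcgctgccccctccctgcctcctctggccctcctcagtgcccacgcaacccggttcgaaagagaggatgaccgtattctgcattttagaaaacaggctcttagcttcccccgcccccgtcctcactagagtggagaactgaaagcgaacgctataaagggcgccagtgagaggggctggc

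NFKB1 and NFKBIZ carried the same match, GGGAATTTCC, at 49 and 223 bases before the start. The match of NFKBIA, GGAAATTCCC, began 81 bases before the start. REL held the same letters at 46 bases, overlapping GGGAAATTCC at 47 bases. NFKBIZ also held GGGGTTTCCC at 239 bases before its other start, which lies inside the gene. For TNFAIP3 and NFKB2 the starts with matches lie inside the annotated span of the gene, and 30 bases around the matches are printed. TNFAIP3 carried 2 matches side by side, at 67 and 55 bases before its start, and NFKB2 carried matches before 2 of its 3 starts.
TNFAIP3 (chr6:137867188-137867217, plus strand): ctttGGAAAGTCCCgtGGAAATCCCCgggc
NFKB2 (chr10:102394462-102394491, plus strand): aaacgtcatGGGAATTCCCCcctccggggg
NFKB2 (chr10:102394490-102394519, plus strand): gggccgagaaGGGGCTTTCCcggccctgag
NFKB2 (chr10:102395519-102395548, plus strand): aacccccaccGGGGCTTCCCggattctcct
NFKB2 (chr10:102395674-102395703, plus strand): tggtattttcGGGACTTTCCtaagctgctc

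Between control and senescent DMSO cells, 7 of the 10 members were higher in the senescent cells and 1, BCL3, was lower. The 8 called members compare with 68.5% of all genes tested that were called in this comparison, 32.5% of them higher and 36.0% lower, so the count alone does not set the members apart from a transcriptome that moved widely. The libraries of senescent and control DMSO cells did not overlap for 8 of the 10 members, against 67.6% of all genes. The median change of the members was 0.77 on the log2 scale, against -0.05 over all genes tested. NFKBIZ, TNFAIP3 and NFKB2 had the largest changes among the members.

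Of the subunits, NFKB2, the precursor that the non-canonical branch processes, was at 38.8, 43.3 and 40.3 CPM in the control DMSO libraries and 107.3, 111.4 and 118.2 CPM in the senescent DMSO libraries. All senescent libraries lay above all control libraries, and the fold was 2.75 (log2 fold change 1.46 ± 0.10 SE, adjusted p = 1.01e-10, edgeR). RELB, the partner of processed NFKB2, was at 20.9, 33.5 and 29.4 CPM in control and 67.3, 58.3 and 69.1 CPM in senescent cells. The groups did not overlap, with a 2.32-fold rise (1.22 ± 0.15, adjusted p = 4.02e-07). RELA, the main transactivating subunit of the canonical dimer, rose less, from 87.6, 86.3 and 69.0 CPM to 121.9, 127.2 and 136.2 CPM. Its change was 0.66 ± 0.10 on the log2 scale, or 1.59-fold (adjusted p = 1.09e-05), and again without overlap. NFKB1, the precursor of RELA's usual partner, did not pass the test. Its control libraries were at 55.8, 54 and 39.4 CPM, around senescent libraries at 47.4, 48.6 and 47.3 CPM, and the 95% interval of its log2 fold change was -0.33 to 0.21. REL, which is best known from lymphocytes, had 5.52, 4.43 and 4.13 CPM in control and 5.68, 6.60 and 5.66 CPM in senescent cells. Its libraries did not overlap but the test was not passed (0.34, 95% interval -0.01 to 0.70, adjusted p = 0.0807). REL is also the member with the least certain count, because 51.33% of its canonical transcript overlaps another annotated gene on the same strand.

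Of the regulators, NFKBIZ, a nuclear IκB protein that works as a co-activator on a subset of targets, was at 30.9, 34.2 and 30.8 CPM in control DMSO and 90.9, 129.0 and 137.3 CPM in senescent DMSO cells. It rose 3.72-fold (1.90 ± 0.19, adjusted p = 2.05e-08), although the senescent libraries were widely spread. TNFAIP3, a ubiquitin-editing enzyme that shuts off the signal above the IκB kinases, was at 19.3, 19.6 and 16.1 CPM in control and 45.6, 44.9 and 65.3 CPM in senescent cells. The groups were well separated, at 2.83-fold (1.50 ± 0.17, adjusted p = 1.96e-07). NFKBIE, which encodes a cytoplasmic inhibitor (IκBε), went from 14.8, 21.6 and 25.7 CPM to 39.4, 31.9 and 42.7 CPM, 1.84-fold higher without overlap (0.88 ± 0.19, adjusted p = 0.000331).

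NFKBIA, which encodes the prototype inhibitor IκBα, was the weakest of the rises. Its control DMSO libraries were at 43, 59.5 and 101.3 CPM and its senescent DMSO libraries at 97.6, 88.5 and 100.3 CPM. Control DMSO replicate 3 lay above every senescent library, and the groups overlapped. The change was 0.49 ± 0.19 (adjusted p = 0.0301), but without that library it was 0.90 (adjusted p = 3.49e-06), and in 7 of 13 alternative analyses it was not past the threshold (adjusted p up to 0.17). BCL3, a nuclear IκB protein that binds homodimers of the NFKB1 and NFKB2 products, went the other way. It was at 42.2, 36.4 and 49.4 CPM in control and 21.5, 22.0 and 24.6 CPM in senescent DMSO cells. The groups did not overlap and the level was 1.88-fold lower (-0.91 ± 0.15, adjusted p = 1.79e-05). The other 7 called members were higher in senescent cells, and BCL3 alone was lower.

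**Figure D1:**
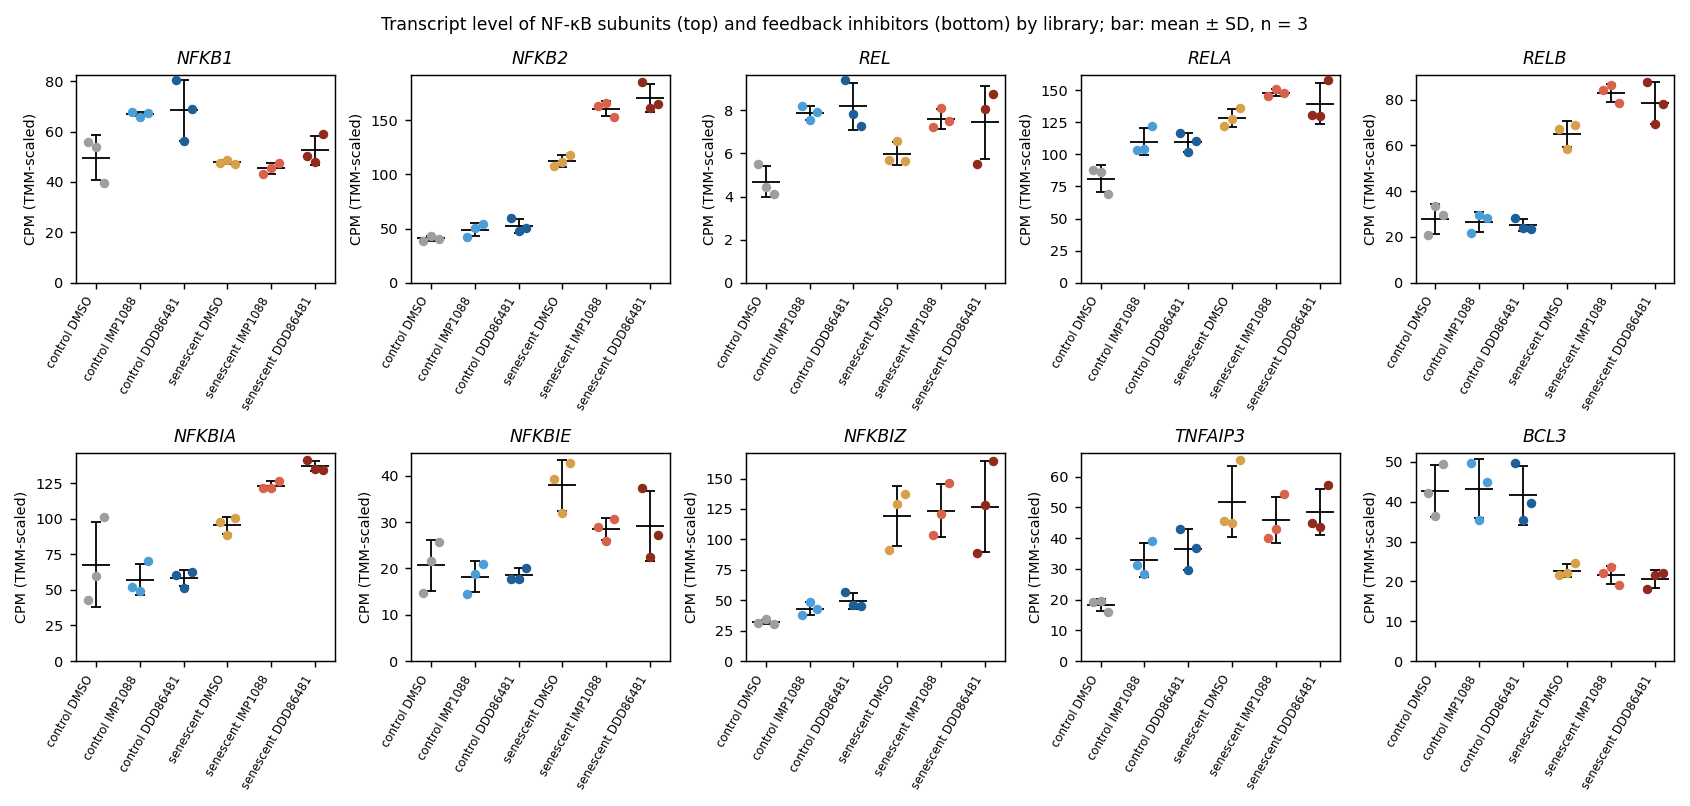
Level of each member in CPM after TMM scaling (vertical axis, linear from 0, its own scale in each panel) in the 6 groups (horizontal axis). Each point is a library, and bars show the mean ± SD of 3 libraries. NFKB2 forms 3 steps, from control cells to senescent DMSO cells (107.3 to 118.2 CPM) to senescent cells with an NMT inhibitor, while BCL3 stays under 25 CPM in every senescent library.

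In senescent cells NFKB2 rose further with both NMT inhibitors, and most other members did not pass the test. The study reports that both compounds kill senescent cells, with survival curves taken after a longer exposure than that of these libraries. How many cells had been lost when the libraries were collected is not known here, so they may hold the RNA of surviving cells. The part of cell loss in the members' changes was not tested. With IMP1088, 1 of the 10 members was called, against 44.4% of all genes tested (20.6% higher, 23.9% lower). With DDD86481, 2 members were called, against 43.2% of all genes (20.1% higher, 23.1% lower). The libraries did not overlap with senescent DMSO for 6 members with IMP1088, against 61.0% of all genes, and for 3 members with DDD86481, against 52.6%. Both comparisons use the same 3 senescent DMSO libraries, and the doses differ, so their values are set side by side without a comparison between the compounds. The summed level of the fibroblast markers was 22168.5 to 23055.2 CPM with DMSO, 15448.6 to 16452.7 with IMP1088 and 15441.5 to 16804.4 with DDD86481, and that of the endothelial markers 10.3 to 10.7, 5.68 to 6.56 and 6.01 to 9.06 CPM. The immune markers summed to 152.1 to 164.7 CPM with IMP1088 and 91.9 to 141.2 with DDD86481. The part of these markers in the members' changes was not tested.

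NFKB2 stood at 163.0, 166.1 and 152.4 CPM with IMP1088 and 184.7, 161.3 and 164.7 CPM with DDD86481, above every senescent DMSO library, the highest of which had 118.2 CPM. The change was 0.51 ± 0.10 with IMP1088 (1.43-fold, adjusted p = 0.000302) and 0.60 ± 0.10 with DDD86481 (1.52-fold, adjusted p = 6.69e-05). Both calls were kept in each of 13 alternative analyses. RELB, its partner, had 84.3, 86.2 and 78.6 CPM with IMP1088 and 87.6, 69.3 and 78.2 CPM with DDD86481. All 6 libraries lay above the senescent DMSO libraries, but the change did not pass the test with IMP1088 (0.36, 95% interval 0.05 to 0.66, adjusted p = 0.0515) or with DDD86481 (0.27, -0.03 to 0.57, adjusted p = 0.138).

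NFKBIA was at 121.4, 121.8 and 126.9 CPM with IMP1088 and 141.3, 135.1 and 134.7 CPM with DDD86481. These libraries also lay above all senescent DMSO libraries. The change was 0.37 with IMP1088 (95% interval -0.03 to 0.77, adjusted p = 0.129) and 0.52 ± 0.19 with DDD86481 (adjusted p = 0.0349). The DDD86481 call was lost in each of the 6 analyses that left out 1 library of either group (adjusted p 0.0581 to 0.109), while the log2 fold change kept within 0.47 to 0.56. The call was kept in the other 7 of 13 alternative analyses (lowest adjusted p = 0.000137, edgeR). With IMP1088, 2 of 13 alternatives called NFKBIA higher, among them the edgeR fit of only the groups compared (0.40, adjusted p = 2.53e-05). NFKBIE was the only member with a negative log2 fold change of more than 0.2 under both compounds. It was at 28.9, 26.0 and 30.7 CPM with IMP1088 and 37.4, 22.5 and 27.3 CPM with DDD86481, against 31.9 to 42.7 CPM in senescent DMSO cells. Neither value passed the test (-0.41, adjusted p = 0.0785, and -0.39, adjusted p = 0.101).

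For the remaining members the data set bounds. TNFAIP3 was at 40.1 to 54.4 CPM with IMP1088 and 43.7 to 57.2 CPM with DDD86481, overlapping senescent DMSO cells, with 95% intervals of -0.53 to 0.17 and -0.45 to 0.25. NFKBIZ overlapped too, at 103.8 to 146.5 and 88.9 to 164.0 CPM, with intervals of -0.32 to 0.43 and -0.28 to 0.47. These intervals leave room for changes of moderate size in either direction. For NFKB1 they were -0.34 to 0.20 and -0.13 to 0.40, and for BCL3 -0.39 to 0.24 and -0.46 to 0.18. RELA had 0.20 with IMP1088 and 0.12 with DDD86481, and REL 0.35 and 0.31, none past the threshold (adjusted p 0.0991 to 0.382). With IMP1088 the number of called members rested on the analysis more than in the other comparisons between groups: a fit of only the senescent DMSO and IMP1088 libraries called 6 members, adding REL, RELA, RELB and NFKBIA as higher and NFKBIE as lower. The share of all genes called in that fit was not computed, so this count cannot be set against a background.

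In control cells the inhibitors raised TNFAIP3, REL, RELA and NFKB1, and DDD86481 also raised NFKB2 and NFKBIZ. IMP1088 raised 4 of the 10 members, against 33.7% of all genes called (16.3% higher, 17.4% lower), and DDD86481 raised 6, against 36.6% of all genes (17.8% higher, 18.7% lower). No member was called lower with either compound, although without control DMSO replicate 1 NFKBIA was called lower with both (-0.49, adjusted p = 0.0184, and -0.46, adjusted p = 0.0234). The libraries did not overlap with control DMSO for 5 members with IMP1088 and 6 with DDD86481, against 41.4% and 43.4% of all genes. The control DMSO libraries are shared by both comparisons. The summed level of the fibroblast markers was 27658.0 to 36298.3 CPM with DMSO, 34359.5 to 37367.5 with IMP1088 and 34292.4 to 40650.5 with DDD86481, and that of the endothelial markers 1.17 to 1.73, 2.82 to 3.41 and 3.24 to 3.97 CPM. Their part in the members' changes was not tested.

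TNFAIP3 had the largest change of the members. From 16.1 to 19.6 CPM with DMSO, it reached 31.3, 28.4 and 39.1 CPM with IMP1088 and 42.9, 29.6 and 36.7 CPM with DDD86481. This was 1.80-fold (0.84 ± 0.17, adjusted p = 0.000911) and 1.99-fold (0.99 ± 0.17, adjusted p = 0.000194), with no overlap. REL, the least abundant member, went from 4.13 to 5.52 CPM with DMSO to 8.18, 7.53 and 7.92 CPM with IMP1088 and 9.39, 7.84 and 7.29 CPM with DDD86481. Its change was 0.74 ± 0.16 (adjusted p = 0.00174) and 0.79 ± 0.17 (adjusted p = 0.000957), with the libraries apart in both cases. RELA was at 103.2, 104.0 and 121.8 CPM and at 116.5, 101.5 and 110.0 CPM, above all control DMSO libraries, with changes of 0.44 ± 0.10 (adjusted p = 0.00303) and 0.43 ± 0.10 (adjusted p = 0.00311). The calls of TNFAIP3, REL and RELA were kept in each of 13 alternative analyses for both compounds.

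NFKB1, which senescence had not changed detectably, was at 67.6, 65.9 and 67.2 CPM with IMP1088 and 80.4, 56.1 and 68.9 CPM with DDD86481, all above the control DMSO maximum of 55.8 CPM. The rise was 0.43 ± 0.13 (adjusted p = 0.0138) and 0.46 ± 0.13 (adjusted p = 0.00809). Single libraries decided part of this. Without control DMSO replicate 3 the IMP1088 value was 0.29 (adjusted p = 0.0645), and without control DDD86481 replicate 1 the DDD86481 value was 0.34 (adjusted p = 0.0683). Neither NFKB1 call was kept in a fit of only the groups compared (adjusted p = 0.0644 and 0.0886). NFKB2 was at 42.5, 50.7 and 53.8 CPM with IMP1088, overlapping DMSO (0.26, adjusted p = 0.0522), and at 59.9, 47.3 and 50.8 CPM with DDD86481, without overlap (0.37 ± 0.10, adjusted p = 0.00857, and 0.0641 in a fit of only the groups compared). NFKBIZ, the co-activator, was at 37.7, 48.1 and 42.8 CPM with IMP1088 (0.42, adjusted p = 0.0855) and 56.9, 46 and 45.1 CPM with DDD86481 (0.63 ± 0.19, adjusted p = 0.0128). The DDD86481 calls of NFKB2 and NFKBIZ were lost without control DDD86481 replicate 1, with log2 fold changes of 0.27 (adjusted p = 0.0599) and 0.52 (adjusted p = 0.0688).

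RELB, NFKBIA, NFKBIE and BCL3 did not pass the test in control cells with either compound. RELB had 95% intervals of -0.39 to 0.23 with IMP1088 and -0.46 to 0.17 with DDD86481. BCL3 had intervals of -0.28 to 0.32 and -0.33 to 0.27. NFKBIA, at 49.6 to 70.1 and 51.7 to 62.5 CPM, lay within the wide control DMSO range of 43 to 101.3 CPM. Its log2 fold changes were -0.24 and -0.22, and without control DMSO replicate 3 they were 0.16 and 0.19, none of these past the threshold.

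**Figure D2:**
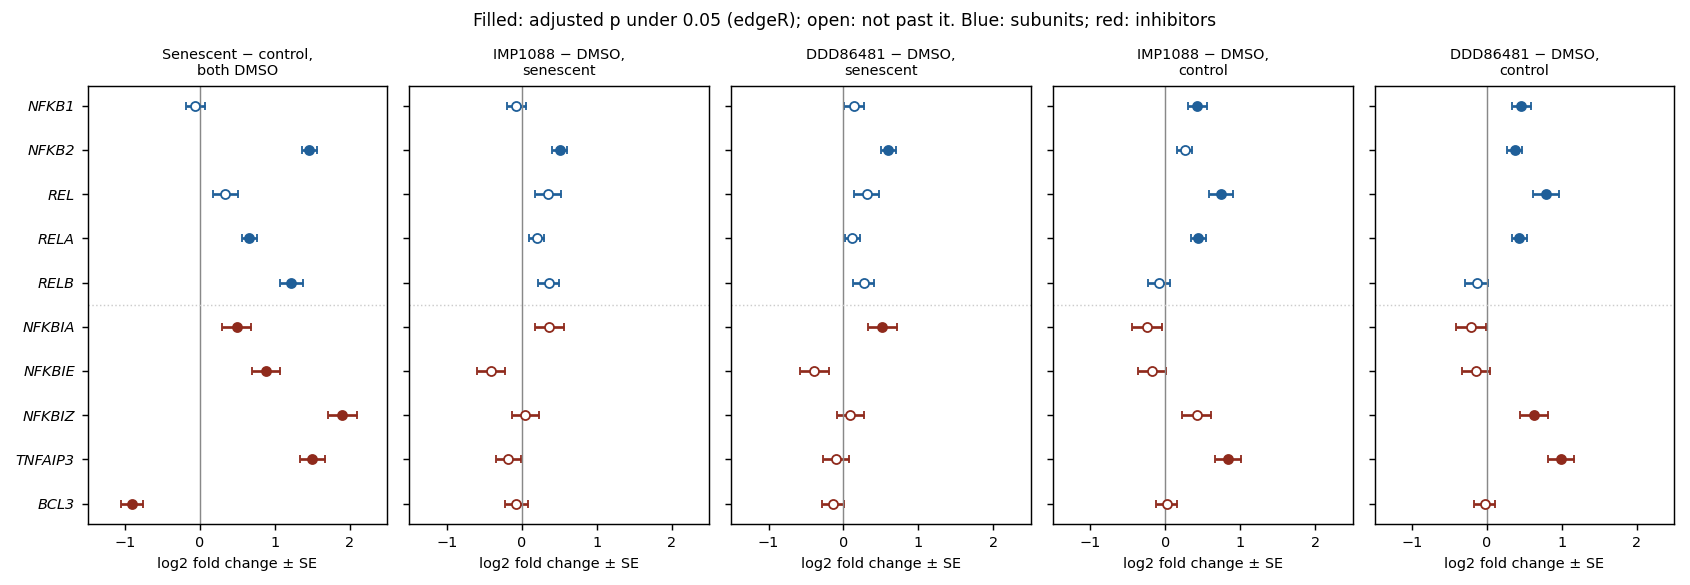
Log2 fold change ± SE (horizontal axis) of each member (vertical axis) in the 5 comparisons between groups, with subunits in blue above the dotted line and regulators in red below it. Filled points passed an adjusted p of 0.05 in edgeR and open points did not. NFKB2 is filled in each senescent panel, whereas TNFAIP3 is filled for senescence and in both control panels but open in both panels of inhibitors in senescent cells.

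Whether an inhibitor acted differently in senescent and control cells was then tested. TNFAIP3 differed with both compounds. Its rise in control cells had no counterpart past the threshold in senescent cells, and the difference of the effects was -1.03 ± 0.24 with IMP1088 (adjusted p = 0.00428) and -1.09 ± 0.24 with DDD86481 (adjusted p = 0.00254). Both were kept in each of 19 alternative analyses, with the first between -1.17 and -0.83 and the other between -1.22 and -0.89. With IMP1088, 2 members were called, against 26.2% of all genes (12.1% higher, 14.2% lower). With DDD86481, 2 members were also called, against 30.3% of all genes (14.4% higher, 15.9% lower).

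The other called member with IMP1088 was NFKB1 (-0.50 ± 0.18, adjusted p = 0.0479), which was called in 4 of 19 alternative analyses. With the replicate number as a block, its adjusted p was 0.0521 at the same size. Without control DMSO replicate 3 the difference was -0.36 (adjusted p = 0.103). With DDD86481 the difference for NFKB1 was -0.32 (95% interval -0.70 to 0.05). The other called member with DDD86481 was NFKBIA (0.74 ± 0.28, adjusted p = 0.0472), which was called in 9 of 19 alternatives. It came to 0.34 (adjusted p = 0.169) without control DMSO replicate 3. With IMP1088 the NFKBIA difference was 0.61 (95% interval 0.04 to 1.19, adjusted p = 0.104). Without that library it was 0.21 (adjusted p = 0.425). For NFKB2, the effects in senescent and control cells were not shown to differ with either compound, at 0.25 (95% interval -0.05 to 0.55) and 0.23 (-0.07 to 0.53). RELB had differences of 0.43 and 0.42 (adjusted p = 0.129 and 0.135), and REL, RELA, NFKBIE, NFKBIZ and BCL3 had negative ones from -0.54 to -0.09, none of them past the threshold.

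The order of the 6 groups differed between members. NFKB2 was lowest in control DMSO cells and highest in senescent DDD86481 cells. The 3 control groups overlapped their neighbours, senescent DMSO cells (112.3 ± 5.53 CPM) lay apart from the groups on either side, and the senescent inhibitor groups (160.5 ± 7.19 and 170.2 ± 12.7 CPM) overlapped each other. RELB was ordered in the same blocks, with control groups between 25.3 ± 2.73 and 27.9 ± 6.44 CPM and senescent groups between 64.9 ± 5.79 and 83.0 ± 3.96 CPM. NFKBIA gave the only profile with a gap between each pair of neighbouring senescent groups: 95.5 ± 6.16 CPM with DMSO, 123.4 ± 3.06 with IMP1088 and 137.1 ± 3.68 with DDD86481. Its senescent DMSO group overlapped control DMSO.

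TNFAIP3 was lowest in control DMSO cells (18.3 ± 1.94 CPM), apart from all others, and the remaining groups overlapped in a chain from 32.9 ± 5.56 CPM in control IMP1088 cells to 51.9 ± 11.6 CPM in senescent DMSO cells. REL was likewise lowest in control DMSO cells (4.69 ± 0.733 CPM), with a narrow gap to senescent DMSO cells (5.98 ± 0.537 CPM) and overlap from there up to control DDD86481 cells (8.18 ± 1.09 CPM). NFKB1 and REL had their highest means in control cells given an inhibitor. For NFKB1 these were 66.9 ± 0.895 and 68.5 ± 12.1 CPM, above 4 overlapping groups between 45.5 ± 2.15 and 52.5 ± 5.85 CPM, although the lowest control DDD86481 library (56.1 CPM) lay within the range of senescent DDD86481 cells. RELA stood at 81.0 ± 10.4 CPM in control DMSO and, apart from that group, at 109.3 ± 7.55 and 109.7 ± 10.5 CPM in control inhibitor cells, and the 3 senescent groups, at 128.4 ± 7.22 to 148.0 ± 2.90 CPM, overlapped in a chain. NFKBIZ had the same gaps, with control inhibitor groups at 42.9 ± 5.21 and 49.4 ± 6.56 CPM and senescent groups at 119.1 ± 24.8 to 126.9 ± 37.5 CPM. NFKBIE was highest in senescent DMSO cells (38 ± 5.52 CPM), and the other senescent groups, at 28.6 ± 2.36 and 29.1 ± 7.59 CPM, came close to the control DMSO maximum of 25.7 CPM, 1 senescent DDD86481 library lying under it at 22.5 CPM. BCL3 formed 2 blocks, from 20.6 ± 2.23 to 22.7 ± 1.63 CPM in senescent and from 41.6 ± 7.33 to 43.3 ± 7.36 CPM in control cells.

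To compare subunits with each other, CPM was divided by the length of the canonical transcript. In control DMSO cells RELA was the most abundant subunit transcript, with 32.2 ± 4.12 CPM per kilobase, or 45.4 ± 3.12% of the 5 subunits (SD, n = 3). NFKB2 held 19.2 ± 1.49%, RELB 17.5 ± 3.97% and NFKB1 17.3 ± 2.05%, so these 3 did not separate beyond their spread. REL held 0.599 ± 0.0927%. Its share rests on a canonical transcript of 11108 bases, against 2258 to 4055 for the other subunits, with 51.33% overlapping another gene. Shares with other transcript lengths were not computed. In senescent DMSO cells NFKB2 held 28.8 ± 0.551% and RELB 22.2 ± 1.62%, while NFKB1 held 9.12 ± 0.50% and RELA 39.5 ± 0.945%. The summed level of the subunits was 70.8 ± 6.66 CPM per kilobase in control DMSO and 129.3 ± 5.86 in senescent DMSO cells. The ranges of these groups did not overlap for the sum or for any of the 5 shares, narrowly so for RELB (up to 20.4% and from 20.5%), and they are given as a description without a test. An exact permutation test of 3 libraries against 3 could not reach 0.05.

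In senescent cells with an inhibitor, the share of NFKB2 was 33.1 ± 0.721% with IMP1088 and 35.3 ± 2.31% with DDD86481, so its level per kilobase (53.2 ± 2.39 and 56.5 ± 4.20) came near that of RELA (58.8 ± 1.15 and 55.4 ± 6.29). The ratio of NFKB2 to NFKB1, per kilobase, was 1.13 ± 0.227 in control DMSO, 3.16 ± 0.18 in senescent DMSO, 4.76 ± 0.394 in senescent IMP1088 and 4.40 ± 0.599 in senescent DDD86481 cells. In control cells with an inhibitor it was 0.985 ± 0.123 and 1.04 ± 0.0778, within the range of the control DMSO libraries (0.935 to 1.38) on average. The summed subunit level in control cells was 88.8 ± 6.97 CPM per kilobase with IMP1088 and 89.7 ± 9.16 with DDD86481, each library above the control DMSO maximum of 77.2.

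**Figure D3:**
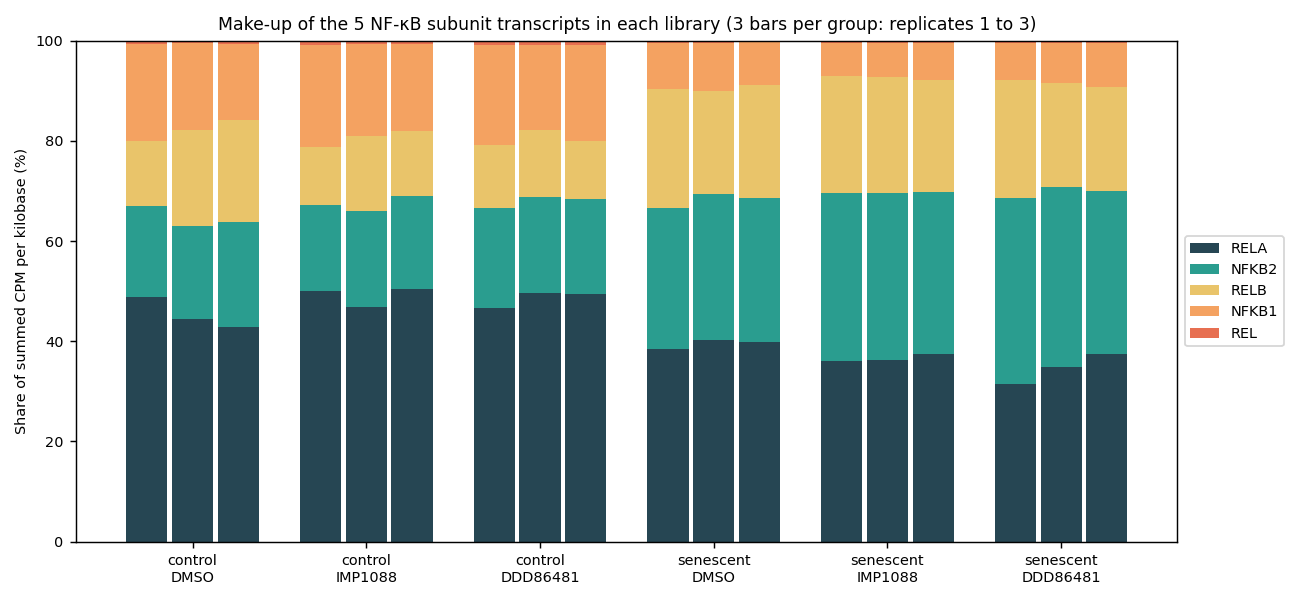
Share of each subunit in the summed CPM per kilobase of the 5 subunits (vertical axis, %) in each of the 18 libraries (horizontal axis, 3 bars a group). The NFKB2 band widens from a mean of 19.2% in control DMSO to 28.8% in senescent DMSO and 35.3% in senescent DDD86481 cells, and the NFKB1 band narrows in senescent cells, while REL is barely visible.

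The rest of the pathway was described with 4 lists of genes. In senescence, 11 of the 28 kinases and adaptors tested rose and 8 fell (median 0.14), and of the 14 receptors tested 7 rose and 6 fell (median 0.07). Over all genes tested, 68.5% were called, 32.5% higher and 36.0% lower, so the numbers called in the kinase and adaptor list were near those shares. With upper quartile scaling, which moved the median of all genes from -0.05 to -0.21, both medians turned negative (-0.02 and -0.09). IRAK2, a kinase-like adaptor of the interleukin-1 and Toll-like receptors, rose by 3.21 ± 0.15, whereas TRAF5 (-2.18 ± 0.18) and MAP3K14 (-1.81 ± 0.19), the kinase that starts NFKB2 processing, fell (edgeR, adjusted p 8.52e-14 to 4.9e-08). MAP3K14 overlaps an antisense gene over 19.32% of its transcript, so its count is less certain. Of the receptors, IL1R1 fell from 398.7 ± 80.0 to 51.4 ± 8.71 CPM (-2.96 ± 0.14, adjusted p = 1.43e-13), TLR2 rose by 2.88 ± 0.18 (adjusted p = 1.48e-11), and TLR3 was at least 12.0-fold lower, with every senescent library at or under the floor of 3 counts.

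Of 21 other inhibitors of the pathway, 11 rose and 3 fell with senescence (median 0.31), beside 32.5% and 36.0% of all genes. TNIP3 and TNIP1, which bind the TNFAIP3 protein, rose by 4.32 ± 0.29 and 2.71 ± 0.091, and ZC3H12A, a nuclease that degrades cytokine messages, by 4.15 ± 0.18 (adjusted p 5.02e-11 to 6.29e-16). Of 38 textbook target genes tested, 29 rose and 6 fell, beside the same shares of all genes (median 2.75, against 0.77 for the members). IL1B went from 1.48 ± 0.61 to 6638.8 ± 294.7 CPM (adjusted p = 4.87e-20), and CSF3 and CSF2 were at least 2060.4-fold and 2007.8-fold higher, as each control library was at or under the floor of 3 counts. The members' largest change was 3.72-fold, for NFKBIZ. IL1B, CSF3 and CSF2 were named as the largest called changes of their list, so they do not measure the target genes as a set. Of 42 listed target genes 38 were tested, and those that did not pass the filter on low counts are outside the median.

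In senescent cells given an inhibitor, the lists are read against all genes, of which IMP1088 raised 20.6% and lowered 23.9%, and DDD86481 raised 20.1% and lowered 23.1%. Of the kinases and adaptors 3 rose and 7 fell with each compound, and of the receptors none rose and 5 fell with each. MYD88, the shared adaptor of interleukin-1 and Toll-like receptors, fell with both compounds, at -0.84 ± 0.11 and -0.85 ± 0.11 (adjusted p = 5.65e-06 and 5.03e-06). CARD10, a scaffold protein of the pathway, had -0.96 ± 0.16 and -0.82 ± 0.15. TRAF3, which restrains the non-canonical branch, had -0.73 ± 0.12 and -0.56 ± 0.12, and TRAF5 had -0.63 ± 0.21 and -0.60 ± 0.21. The receptors TNFRSF21, TLR2 and IL18R1 also fell, at -1.28 ± 0.12, -1.27 ± 0.16 and -0.90 ± 0.30 with IMP1088, and at -1.42 ± 0.12, -1.41 ± 0.16 and -1.01 ± 0.31 with DDD86481. All these genes of the kinase, adaptor and receptor lists had adjusted p from 1.28e-08 to 0.0244.

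Among the other inhibitors, 6 rose and 2 fell with IMP1088, and 7 rose and 1 fell with DDD86481. IRAK3, a brake on receptor signalling, rose from 10.0 ± 1.13 to 50.3 ± 4.97 CPM with IMP1088 and 49.2 ± 9.10 CPM with DDD86481 (2.33 ± 0.20 and 2.29 ± 0.20, adjusted p = 2.57e-08 and 3.52e-08). NFKBID, another nuclear IκB gene, rose by 0.99 ± 0.18 and 0.93 ± 0.19, and CYLD, a deubiquitinase that limits the pathway, by 0.77 ± 0.092 and 0.85 ± 0.092. The target genes split: 7 rose and 12 fell with IMP1088 (median -0.11), and 11 rose and 12 fell with DDD86481 (median 0.01), beside a median of 0.13 for the members with each compound and -0.04 for all genes. The chemokine CXCL10 fell most (-5.09 ± 0.30 and -5.04 ± 0.30), PTX3 had -3.26 ± 0.27 and -2.74 ± 0.26, and CCL2 had -2.31 ± 0.41 and -1.79 ± 0.40, while the chemokine CCL20 rose with both compounds (2.27 ± 0.19 and 2.45 ± 0.19, adjusted p of these 4 genes 2.07e-10 to 0.00116). NFKB2 thus rose beside target genes that moved in both directions.

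In control cells the shares of all genes called were 16.3% higher and 17.4% lower for IMP1088, with 17.8% higher and 18.7% lower for DDD86481. The kinases and adaptors gave 2 higher and 5 lower with IMP1088 and 3 higher and 5 lower with DDD86481, and the receptors 2 higher and 1 lower with each. The other inhibitors gave 4 higher and 4 lower, and 6 higher and 4 lower. The target genes gave 10 higher and 11 lower with IMP1088, and 10 higher and 9 lower with DDD86481. The members, with 4 and 6 higher and none lower, had medians of 0.34 and 0.40 there, and the target genes 0.19 and 0.37.

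**Figure D4:**
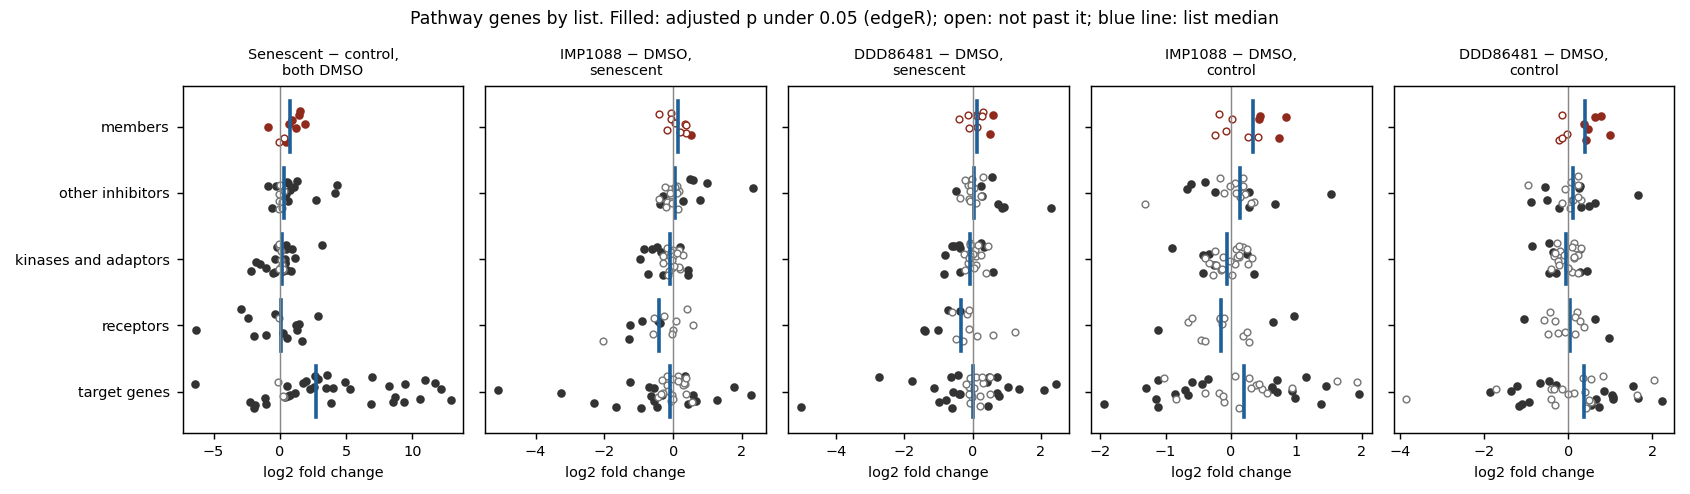
Log2 fold change (horizontal axis, its own scale in each panel) of the tested genes of the members and the 4 pathway lists (vertical axis), with a point for each gene, filled where the adjusted p in edgeR was under 0.05, and a blue line at the median of the list. In senescence the target genes have a median of 2.75 and the members 0.77, and with an inhibitor in senescent cells both medians lie within 0.13 of 0.

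For each member, the gene whose 6 group means were most like its own was sought among 12734 other genes, by the root mean square (RMS) difference of centred log2 CPM. TNFAIP3 was most like CPEB4, an RNA-binding protein of translation control (RMS difference 0.042), NFKB2 most like FLRT3 (0.065), RELB most like LGMN, a lysosomal protease (0.050), and NFKBIA most like PSMD9, a proteasome assembly factor (0.042). RELA was most like ARCN1, a subunit of the COPI coat (0.041). NFKB1 was most like STAG2 (0.043), REL most like KDM4C (0.044), NFKBIE most like NSMF (0.037), NFKBIZ most like DOCK5 (0.060) and BCL3 most like RPIA (0.026). These likenesses rest on 6 means and describe the pattern alone.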

How the data were processed

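Poly(A) RNA of IMR90 ER:RAS cells was measured in 18 libraries. The authors deposited raw read counts per gene symbol. The submitters' processing notes name DRAGEN, STAR 2.7.8a, DESeq2 1.32.0 and hg38, whereas the study's methods name a directional library kit and TopHat in first-strand mode on hg19. Whether counting used the strand is not given in the sources used here, so counts of overlapping genes, sense or antisense, are uncertain. Of the gene rows, 95.47% matched a current RefSeq symbol.

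Groups came from the labels. The filter filterByExpr in edgeR 4.0.16 (R 4.3.3) kept 14341 genes with 99.96% of the counts. The quasi-likelihood test of edgeR was run on TMM-scaled counts, all 6 groups together, with Benjamini-Hochberg adjustment over all genes tested and a threshold of 0.05. SEs were derived from the F statistic. Comparisons were senescent against control cells with DMSO, each inhibitor against DMSO in each state, and the interaction of inhibitor with senescence. The code was tested on simulated data. Alternatives were other scaling, no filter, DESeq2 1.42.0, a replicate block, a fit of only the groups compared and leaving out each library.

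All members were named. From each pathway list, the 3 called genes with the largest change and a mean of at least 1 CPM in either group were named, in the senescence comparison and in each inhibitor comparison of senescent cells. The members and lists were chosen with earlier results of these data known. Promoter windows are from RefSeq on GRCh38.p14. Transcript lengths and overlaps are from GENCODE on GRCh37.

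No library was a duplicate (chi-square per gene between replicates at least 4.89). After group means were removed, libraries with the same number correlated above 0.1 in all 3 pairs for control DMSO with control IMP1088 only (r = 0.394, 0.123 and 0.231) among the groups compared. Of the groups not compared with each other, control IMP1088 with control DDD86481 also passed 0.1 in all 3 pairs (r = 0.101, 0.27 and 0.129). The same held for senescent IMP1088 with senescent DDD86481 (r = 0.117, 0.126 and 0.119). The pairing rests on these correlations, since the labels name no shared batch.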

Additional observations from a re-analysis of the deposited data

Results flagged for a closer look

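The effects of an inhibitor in senescent and in control cells differed by the interaction term of the edgeR fit for 3 members. For TNFAIP3 the difference was -1.03 with IMP1088 (adjusted p = 0.00428) and -1.09 with DDD86481 (adjusted p = 0.00254). It was higher with an inhibitor in 6 of 6 control libraries than in any control DMSO library, while in senescent cells the libraries overlapped.

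For NFKB1 the difference was -0.50 with IMP1088 (adjusted p = 0.0479). Over the alternatives its adjusted p ranged from 0.0157 to 0.111. For NFKBIA the difference was 0.74 with DDD86481 (adjusted p = 0.0472), with a range from 0.00113 to 0.169. Control DMSO replicate 3, at 101.3 CPM of NFKBIA against 43 and 59.5 CPM in its group, enters both differences.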

How the results depend on the processing

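No called value of a member changed sign under any alternative. Leaving out each library in turn gave 1 to 2 called members for IMP1088 in senescent cells (2 without senescent DMSO replicate 2), 1 to 3 for DDD86481 in senescent cells, 3 to 7 for DDD86481 in control cells (3 without control DDD86481 replicate 1), 1 to 4 for the interaction of IMP1088 with senescence (4 without control DMSO replicate 1) and 1 to 3 for the interaction of DDD86481. For IMP1088 in senescent cells, no filter on low counts gave 4 called members and a fit of only the groups compared gave 6. The share of all genes called was not computed for the alternatives, so their counts of members have no background beside them. For the interaction of IMP1088, 1 member was called, TNFAIP3, with upper quartile scaling, with the replicate block, with both and with only the groups compared. For the interaction of DDD86481, only the groups compared gave 1. With the replicate block, the pairing of control DMSO with control IMP1088 libraries left 4 members called for IMP1088 in control cells.

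Of the 70 values of the members over the 7 comparisons, 25 were called. For these, 140 of 174 fits without 1 library kept the call and 34 lost it, and 164 of 175 fits with another setting kept it and 11 lost it. For the values that were not called, 14 of 366 fits without 1 library and 16 of 315 fits with another setting gave a call. The cause of these changes was not tested. How far counting error and spread between libraries each set the intervals was not separated. REL had the lowest counts of the members, as few as 83 in a library. Its SE was not the largest, at 0.17 in the senescence comparison beside 0.19 for NFKBIA.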
